A study of Mus musculus with 12 samples.

Results

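Expression of the genes that carry out antigen receptor rearrangement and build the surrogate light chain was followed across 4 mouse acute myeloid leukaemia (AML) cell lines. The genes were Rag1, Rag2, Dntt, Vpreb1, Vpreb2, Vpreb3 and Igll1, and every probe set annotated to any of them was taken. They made up 10 of the 45037 probe sets tested. Of the 7 genes, 6 had a probe set of their own, among 18193 genes in all, and Vpreb2 was measured only by a probe set that it shares with Vpreb1. The group was chosen on the intensities of these arrays, because Vpreb1 and Dntt had changed in opposite directions in the 2 resistant lines, so the resistant minus parental differences of all its members are given as description, with no test.

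The study asked how gene expression differs between lines resistant and lines sensitive to cytarabine (Ara-C), the nucleoside analogue used against AML. B117H is the resistant line and B117P its sensitive parent. B140H is the resistant line and B140P its sensitive parent. All 4 lines come from leukaemias of BXH-2 mice, which are known for myeloid leukaemia caused by retroviral insertions, and the labels do not say whether a line is a single clone. The same treatment text, exposure to rising Ara-C, and the same growth text, passage without Ara-C in ASM medium, stand with all 12 samples, parental ones included. Each line was measured on 3 arrays, lettered A, B and C, and the labels do not say whether these came from separate cultures, so that p-values measure the spread between these arrays, which may be technical. The values are RMA intensities (background-corrected, normalized probe-set summaries) on a linear scale, and changes are differences of log2(intensity + 1), which understate the change of dim probe sets.

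V(D)J recombination assembles the variable regions of immunoglobulin and T cell receptor genes in developing lymphocytes. RAG1 and RAG2 together form the recombinase that cuts the DNA beside the gene segments, the non-homologous end joining proteins rejoin the ends, and the terminal transferase encoded by Dntt adds untemplated nucleotides at the junctions. Once a heavy chain has been made, VpreB (Vpreb1 and Vpreb2) and lambda5 (Igll1) pair as the surrogate light chain, which sits with the mu heavy chain and the signalling chains CD79A and CD79B in the pre-B cell receptor. Vpreb3 encodes a related protein of B cells that is retained inside the cell. These genes are best known from early lymphoid progenitors, and terminal transferase also occurs in a share of human AML.

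The upstream sequences of the 6 genes on which the results turn are shown because Vpreb1 and Dntt, and Rag1 and Rag2, had similar profiles. They are the 250 bases before each annotated start in RefSeq (GRCm38.p6), read 5′ to 3′ on the gene's own strand: Rag1 chr2:101649533-101649782, minus strand, Rag2 chr2:101624462-101624711, plus strand, Dntt chr19:41029025-41029274, plus strand, Vpreb1 chr16:16869256-16869505, minus strand, Vpreb2 chr16:17980315-17980564, plus strand and Igll1 chr16:16863986-16864235, minus strand. Capitals mark motif matches in Rag1, Rag2 and Igll1, and the 91-base run shared by Vpreb1 and Vpreb2.
Rag1: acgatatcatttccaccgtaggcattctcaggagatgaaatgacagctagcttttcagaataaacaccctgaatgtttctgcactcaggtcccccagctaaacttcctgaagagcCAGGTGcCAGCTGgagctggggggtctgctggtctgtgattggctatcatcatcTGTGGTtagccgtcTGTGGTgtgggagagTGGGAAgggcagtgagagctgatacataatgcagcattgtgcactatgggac
Rag2: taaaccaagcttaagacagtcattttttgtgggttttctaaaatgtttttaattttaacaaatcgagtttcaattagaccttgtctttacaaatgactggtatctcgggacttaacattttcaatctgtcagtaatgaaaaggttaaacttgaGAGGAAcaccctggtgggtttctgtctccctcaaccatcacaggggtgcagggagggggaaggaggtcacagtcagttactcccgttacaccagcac
Dntt: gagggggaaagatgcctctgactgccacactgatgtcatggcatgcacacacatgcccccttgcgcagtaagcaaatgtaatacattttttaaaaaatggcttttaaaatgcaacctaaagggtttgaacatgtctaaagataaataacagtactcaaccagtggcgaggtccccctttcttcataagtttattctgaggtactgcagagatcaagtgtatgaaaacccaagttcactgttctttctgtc
Vpreb1: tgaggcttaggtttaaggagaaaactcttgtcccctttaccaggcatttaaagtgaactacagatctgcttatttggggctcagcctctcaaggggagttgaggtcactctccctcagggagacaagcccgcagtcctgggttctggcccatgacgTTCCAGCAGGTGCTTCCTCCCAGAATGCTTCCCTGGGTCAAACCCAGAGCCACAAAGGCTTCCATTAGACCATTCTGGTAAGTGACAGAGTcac
Vpreb2: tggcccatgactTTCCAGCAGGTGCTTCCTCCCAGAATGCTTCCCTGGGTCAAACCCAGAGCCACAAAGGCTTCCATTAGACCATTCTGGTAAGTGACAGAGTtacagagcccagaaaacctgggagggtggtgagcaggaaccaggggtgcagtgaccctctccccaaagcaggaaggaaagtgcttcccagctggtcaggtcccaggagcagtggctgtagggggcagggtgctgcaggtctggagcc
Igll1: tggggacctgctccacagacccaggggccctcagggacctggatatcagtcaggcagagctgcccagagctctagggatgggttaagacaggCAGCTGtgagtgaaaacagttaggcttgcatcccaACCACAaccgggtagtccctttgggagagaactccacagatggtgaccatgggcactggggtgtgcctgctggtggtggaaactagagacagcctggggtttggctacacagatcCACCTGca

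The Vpreb1 and Vpreb2 windows overlap over 106 aligned bases, of which 104 (98.1%) are identical. All 7 genes had an upstream window, and 7 motifs were searched on both strands among the windows of 32851 genes. Of all windows, 17.2% held CAGGTG, the E box letters of E proteins, and 13.001% held the palindromic E box letters CAGCTG. The Ikaros letters TGGGAA were in 21.6%, the Runx letters TGTGGT in 14.0%, the Spi1 letters GAGGAA in 23.3%, the octamer ATGCAAAT in 1.60% and the Ebf1 motif in 0.779%. Rag1 held both E boxes, the Ikaros letters and 2 matches of the Runx letters, and Rag2 held the Spi1 letters. Vpreb1 and Vpreb2 both held the first E box and the Spi1 letters inside the shared run, and Vpreb2 also held the palindromic E box and the Ikaros letters outside it. Igll1 held both E boxes and the Runx letters, and the window of Vpreb3 held the octamer and the Runx letters. None of the 7 motifs was in the Dntt window, so none was shared by the Dntt and Vpreb1 windows. A match is a stretch of letters and not a shown binding site.

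The 12 arrays had medians between 118 and 131 intensity units, and over all probe sets the correlation was 0.988 to 0.997 between 2 arrays of a line and 0.954 to 0.967 between arrays of different lineages. The labelled myeloid identity was checked with 17 measured myeloid markers, whose summed intensity was 62467 to 65005 in B117H and 87955 to 99571 in B117P, and 29392 to 30539 in B140H and 33497 to 36017 in B140P. The sum of 13 measured B cell markers was 2992 to 3174 in B117H and 2799 to 3133 in B117P, and 15688 to 18558 in B140H and 13196 to 15498 in B140P. Both B140 lines thus carried several B cell markers beside the myeloid ones, among them Cd79b, Cd72 and Ebf1. In each B140 line 5 of the 13 B cell markers lay below the array median on all 3 arrays. So did 5 myeloid markers in B140H and 6 in B140P. By limma at an adjusted p under 0.05, 13 myeloid markers were lower and 1 higher in B140P than in B117P (82.4%, against 23.8% of all genes). In B140H against B117H, 11 were lower and 1 higher (70.6%, against 27%). Of the 13 B cell markers, 7 were higher and none lower in B140P than in B117P (53.8%, against 23.8%). In B140H against B117H, 7 of them were higher and 1, Blnk, was lower (61.5%, against 27%). Pax5 had mean log2 levels of 7.42 to 7.70 across the 4 lines. The sums weigh bright genes most, such as Ptprc, at mean log2 levels of 13.1 to 13.7. Ptprc is not restricted to myeloid cells, so the myeloid sums alone do not show myeloid identity. The 14 T and NK cell markers summed to 2159 to 2989.6 over all 4 lines, with overlapping ranges. Genes at the low end of an array, such as Cr2 and Ms4a1 here, have no detection call, and RMA compresses their values.

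**Figure D1:**
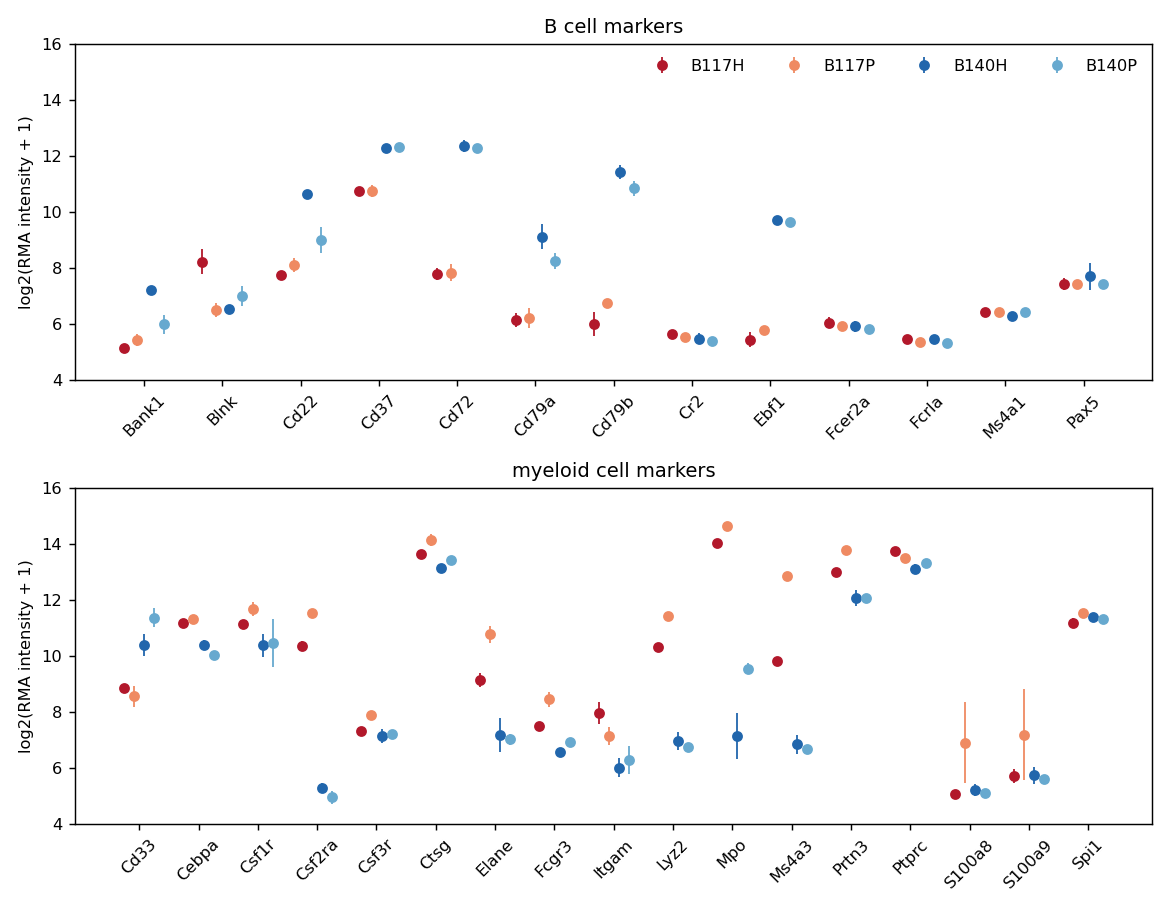
Mean log2(RMA intensity + 1) of the measured B cell and myeloid markers in B117H, B117P, B140H and B140P, with bars of 1 SD over 3 arrays. Cd79b, Cd72 and Ebf1 lie higher in the B140 lines than in the B117 lines, while Mpo, Csf2ra and Ms4a3 lie lower. Pax5 and Ms4a1 lie at similar levels in all 4 lines.

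Vpreb1, the VpreB chain of the surrogate light chain, was high in B117H and low in B117P, and the order was turned round in the other lineage. Its probe set 1449869_at read 3549.8, 4836 and 4768 intensity units on arrays A, B and C of B117H, against 391, 862 and 745 in B117P. It read 1189, 1113 and 1208 in B140H, against 2044, 3930.5 and 3630.3 in B140P. In each lineage the resistant and parental arrays did not overlap, and the B140H arrays were close together while array A of B140P was the lowest of its line. The log2 difference was 2.78 ± 0.28 (SE) for B117H minus B117P, a 6.87-fold higher level, and -1.40 ± 0.28 for B140H minus B140P, a 2.63-fold lower level.

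The probe set annotated to both Vpreb1 and Vpreb2, 1422416_s_at, had the same profile. It read 1418, 1997 and 2204 in B117H, against 214, 322 and 311 in B117P. It read 443, 475 and 549 in B140H, against 770.2, 1599.7 and 1459 in B140P. No array of a resistant line overlapped its parent, and the log2 differences were 2.72 in the B117 lineage and -1.32 in the B140 lineage. Signal of Vpreb1 and Vpreb2 cannot be told apart in it, so Vpreb2 has no value of its own. In RNA of whole cultures, fewer cells that express a gene and less RNA per cell cannot be told apart, which holds for every level below.

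Dntt, the terminal transferase gene, had 3 probe sets, and each was higher in B117H than in B117P and lower in B140H than in B140P on all arrays. The brightest, 1449757_x_at, read 5988, 9850.3 and 10462 in B117H, against 1088, 3437 and 2568 in B117P. It read 1885, 1423 and 1811 in B140H, against 5782, 6897 and 6445 in B140P. The B117P arrays spread the most, with array A the lowest, whereas the B140P arrays lay close together. The log2 differences were 2.002 ± 0.33 for B117H minus B117P and -1.91 ± 0.33 for B140H minus B140P, a 4.004-fold higher and a 3.75-fold lower level.

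The name ending of 1449757_x_at marks probes that may bind other transcripts, so the other 2 Dntt probe sets bear on it. Probe set 1450545_a_at read 5183, 8550.3 and 8542 in B117H, against 832, 1722 and 1682 in B117P. It read 1384, 969 and 1203 in B140H, against 5158, 5819.5 and 5332 in B140P. Its differences, 2.43 in the B117 lineage and -2.21 in the B140 lineage, were larger than those of the brightest probe set. The dimmest, 1420166_at, gave 1.75 and -1.85, with 556, 1307 and 1122 in B117H and 118, 506 and 356 in B117P, and 207, 161 and 279 in B140H and 589.7, 859 and 865 in B140P.

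**Figure D2:**
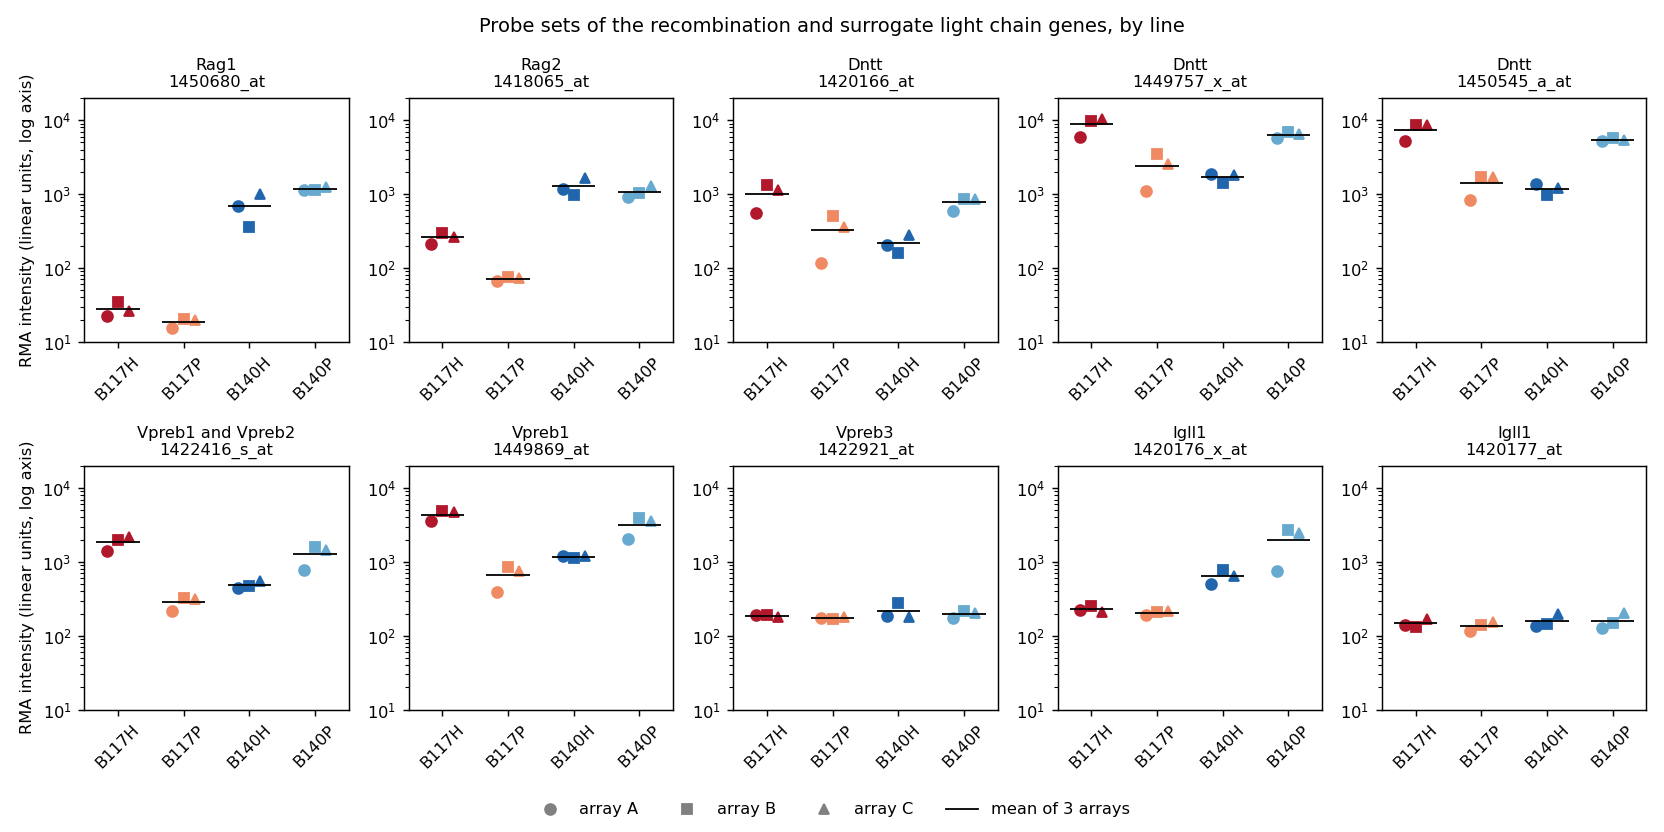
RMA intensity (linear units on a log axis) of the 10 probe sets on each array of B117H, B117P, B140H and B140P, with circles, squares and triangles for arrays A, B and C and a bar at the mean of 3 arrays. All Vpreb1 and Dntt panels place B117H above B117P and B140H below B140P, while Rag1 lies near the bottom of the axis in both B117 lines.

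Rag1, the catalytic subunit of the recombinase, differed chiefly between the lineages. Probe set 1450680_at read 22.5, 34.4 and 25.7 in B117H, against 15.5, 20.5 and 19.9 in B117P, which are among the dimmest probe sets of those arrays (4.04th to 15.9th percentile). It read 685, 361 and 996 in B140H, against 1119, 1126 and 1257 in B140P. The resistant and parental arrays did not overlap in either lineage, and the B140H arrays were spread widely, with array B the lowest. The log2 difference was 0.53 ± 0.28 for B117H minus B117P, at a level where the scale is compressed, and -0.89 ± 0.28 for B140H minus B140P, or -0.50 without array B of B140H.

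Rag2, the other recombinase subunit, was higher in B117H than in B117P but overlapped between B140H and B140P. Probe set 1418065_at read 213, 297 and 265 in B117H, against 67.4, 75.1 and 72.2 in B117P. It read 1175, 981 and 1667 in B140H, against 919, 1025 and 1272 in B140P. All B117H arrays lay above all B117P arrays, with a log2 difference of 1.82 ± 0.18. Rag2 lay below the array median on the B117P arrays, so this size is not exact. The B140H minus B140P difference was 0.23 ± 0.18. In the B140 lineage the differences of Rag1 and Rag2 thus had opposite signs, -0.89 and 0.23.

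Igll1, which encodes lambda5, the partner of VpreB, had 2 probe sets that disagreed. Probe set 1420176_x_at read 220.1, 255 and 213 in B117H, against 194, 211 and 215 in B117P. It read 499.8, 773 and 642 in B140H, against 758, 2709 and 2469.5 in B140P. The B117 arrays overlapped, with a log2 difference of 0.15, and so did the B140 arrays, since array A of B140P lay at the level of the B140H arrays while its arrays B and C were higher. The B140H minus B140P difference was -1.45 ± 0.36. The second probe set, 1420177_at, read 139, 132 and 171 in B117H and 115, 142 and 155 in B117P, and 134, 143 and 197 in B140H and 127, 148 and 203 in B140P. All 4 lines overlapped in it, with differences of 0.10 and -0.01, so the statements on Igll1 rest on 1 probe set of the kind that may bind other transcripts.

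Vpreb3 showed no separation between the lines. Probe set 1422921_at read 189, 191 and 179 in B117H, against 173, 169 and 181 in B117P. It read 184, 278 and 181 in B140H, against 175, 215 and 201 in B140P. Its arrays overlapped in both lineages, and the log2 differences were 0.10 for B117H minus B117P and 0.09 for B140H minus B140P.

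Counted by the brightest probe set of each gene, the arrays did not overlap for 4 of the 6 genes, all higher, in the B117 lineage, where 26.2% of all genes did not overlap (13.7% higher), and for 3 genes, all lower, in the B140 lineage, where 23.7% did not (10% lower). These contrasts chose the genes, so the counts describe the choice. The median log2 difference of the 6 genes was 1.18 in the B117 lineage and -1.14 in the B140 lineage, against -0.01 and 0.05 over all genes. Limma was fitted to all genes, and its results for the members are not given in the resistant minus parental comparisons. At an adjusted p under 0.05 by limma, 9.41% of all genes, members included, were called in B117H against B117P (4.73% higher and 4.68% lower). In B140H against B140P it was 6.56% (3.75% lower and 2.81% higher), and 10% with the array letter as a block. The difference between the changes in the 2 lineages was called for 10.4% of all genes.

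The order of the 4 lines differed between the genes. Rag1 and Igll1 (1420176_x_at) had the order B117P, B117H, B140H, B140P from low to high, with all neighbours apart for Rag1. For Igll1 the 2 B117 lines overlapped, as did the 2 B140 lines. Rag2 differed from this order in that B140P and B140H, which overlapped, changed places. Dntt had the order B140H, B117P, B140P, B117H in all 3 of its probe sets, with overlap between B140H and B117P and between B140P and B117H. Vpreb1 had the order B117P, B140H, B140P, B117H, in which B140P and B117H overlapped and the other neighbours were apart. Vpreb3 overlapped throughout.

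The comparison of the lineages asked how far these genes separate the 2 leukaemias, and was tested for the 4 genes that did not motivate the choice. Rag1, Rag2 and Igll1 were higher in the B140 lines, both among the resistant and among the parental lines. By limma, Rag1 was higher in B140P than in B117P by 5.90 ± 0.28 on the log2 scale (SE, adjusted p = 5.95e-09) and in B140H than in B117H by 4.48 ± 0.28 (adjusted p = 8.12e-08). Rag2 was higher by 3.87 ± 0.18 in B140P than in B117P (adjusted p = 6.43e-09) and by 2.28 ± 0.18 in B140H than in B117H (adjusted p = 1.03e-06). The size for Rag1 rests on B117 values at the bottom of the arrays, where RMA compresses levels and no detection call exists, so it is not an exact fold. Rag2 lay below the array median in B117P, at a mean log2 level of 6.18, so its difference between the parents is not exact either. These differences exceeded the spread between arrays of a line, and no B140 array overlapped a B117 array for either gene, as for 38.6% of all genes between the parental and 38.9% between the resistant lines.

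Igll1 by 1420176_x_at was higher by 3.05 ± 0.36 in B140P than in B117P (limma, adjusted p = 3.61e-05) and by 1.46 ± 0.36 in B140H than in B117H (adjusted p = 0.0101). Its other probe set differed by 0.20 between the parental lines (95% interval -0.21 to 0.61, adjusted p = 0.653) and by 0.09 between the resistant lines (95% interval -0.32 to 0.50, adjusted p = 0.803). Without all B arrays the resistant difference of 1420176_x_at was 1.38 with an adjusted p of 0.0961, and without all C arrays 1.39 with an adjusted p of 0.107. Vpreb3 differed by 0.17 between the parental lines (95% interval -0.14 to 0.49, adjusted p = 0.578) and by 0.17 between the resistant lines (95% interval -0.14 to 0.49, adjusted p = 0.485). In each comparison 3 of these 4 genes passed the test as higher and none as lower, where 12% of all genes passed as higher in B140P than in B117P (23.8% in either direction) and 13.3% in B140H than in B117H (27% in either direction).

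For Vpreb1 and Dntt, whose choice used the same arrays, only values are given. Vpreb1 differed by 2.28 for B140P minus B117P and by -1.89 for B140H minus B117H. Dntt differed by 1.58 for B140P minus B117P and by -2.33 for B140H minus B117H. Both genes were thus higher in the B140 line among the parents and lower in the B140 line among the resistant lines, unlike Rag1 and Rag2, which were higher in the B140 line each time.

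**Figure D3:**
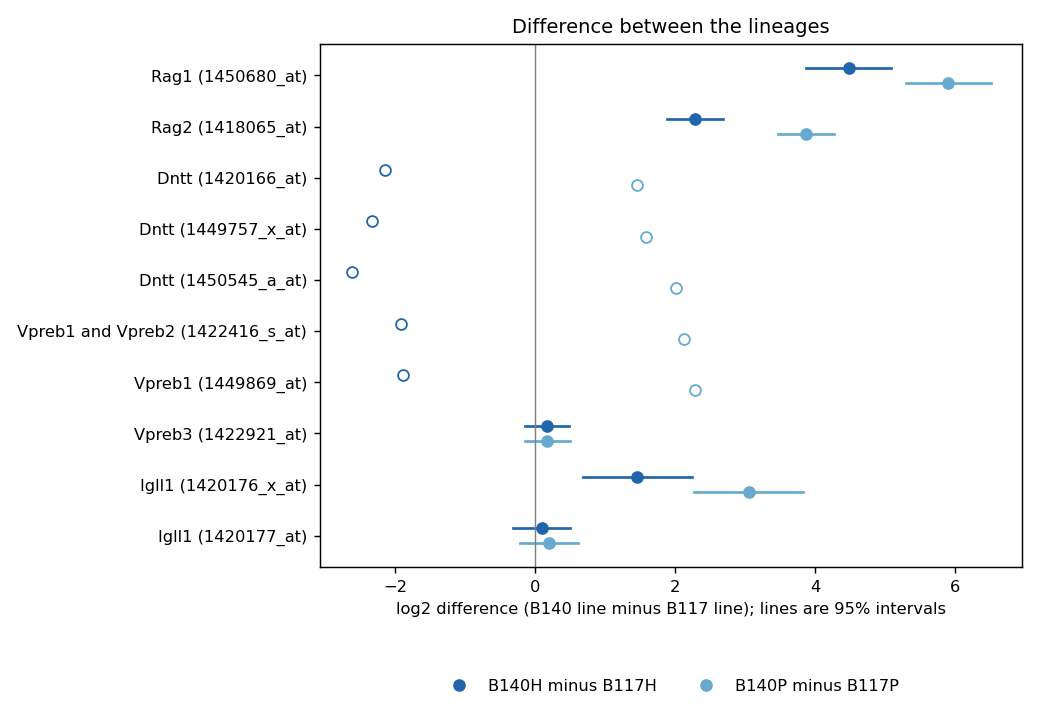
Log2 difference of each probe set between the B140 and the B117 line, for B140H minus B117H and for B140P minus B117P, with 95% intervals for the tested probe sets (filled) and none for those whose choice used these arrays (open). Rag1 and Rag2 lie to the right of 0 in both comparisons, whereas the open Vpreb1 and Dntt points change sides.

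Across the 12 arrays, which come from only 4 lines, the log2 levels of Rag1 and Rag2 had a Pearson correlation of 0.93, and 0.87 after each line's mean was removed. Dntt (1449757_x_at) and Vpreb1 had 0.91, and 0.84 within lines, and this pair was chosen for its pattern. Dntt and Rag1 had -0.03 over the 12 arrays. Rag1 and Igll1 (1420176_x_at) had 0.89, but -0.03 within lines, so that their likeness lay between the lines. The within-line values share the array letter. Array A was the lowest of its line in 3 or 4 of the 4 lines for 9 of the 10 probe sets, against 23.9% of all 45037 probe sets, and with the letter as a block the SE of the Vpreb1 differences was 0.18 in place of 0.28.

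The 3 genes most alike to each varying member over the 12 arrays are named as a description of these lines. For Rag1 they were Hmgcll1 (r = 0.994), Zfp677 (0.993) and Pdcd1 (0.992), the gene of the inhibitory receptor PD-1, all at low levels in both B117 lines. For Rag2 they were Amz1 (0.985), Tmem64 (0.981) and Pcgf6 (0.981), a Polycomb ring finger gene. For Dntt they were Atxn3 (0.946), a deubiquitinase gene, Lemd3 (0.937) and Selenom (0.936). For Vpreb1 they were Camk1d (0.959), a calmodulin-dependent kinase gene, Foxn3 (0.952) and Mettl8 (0.947). For Igll1 they were Ppan (0.972), Cdca2 (0.971) and Prkd2 (0.968).

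Neighbouring genes were followed to see whether the differences extended along the chromosome. Rag1 and Rag2 adjoin on chromosome 2, with Traf6 beyond Rag1 and Iftap beyond Rag2. Traf6, a signalling adaptor gene, differed by 0.24 in B117H (adjusted p = 0.313) and -0.06 in B140H (adjusted p = 0.862) from the parent. Iftap differed by -0.07 in B117H (adjusted p = 0.932) and was higher in B140H than in B140P by 0.45 (adjusted p = 0.0486), a call not run under the alternatives. Between the parental lines Traf6 was higher in B140P by 0.44 (adjusted p = 0.0108), while Iftap was lower, at -2.78 (adjusted p = 2.19e-09), against the direction of Rag1 and Rag2.

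Dntt lies on chromosome 19 between Blnk and Opalin. Blnk, the adaptor that links the pre-B cell receptor to its signalling, rose in B117H by 1.72 over B117P (limma, adjusted p = 0.000341) and had -0.47 in B140H against B140P (adjusted p = 0.363), and Opalin had 0.02 and 0.02 (adjusted p = 0.99 and 0.967). Blnk lay below the array median on 7 of the 12 arrays, so the sizes of its differences are not exact. Vpreb1 and Igll1 adjoin on chromosome 16, yet in B117H Vpreb1 was higher by 2.78 and Igll1 by 0.15. Top3b, beyond Vpreb1, had -0.18 in B117H and -0.03 in B140H (adjusted p = 0.498 and 0.936), and Spag6l, beyond Igll1, had 0.28 and 0.26 (adjusted p = 0.405 and 0.481). Beside Vpreb3 on chromosome 10, Chchd10 was higher in B140P than in B117P by 3.57 (adjusted p = 6.20e-10), where Vpreb3 differed by 0.17. Slc25a1 and Dgcr6 flank Vpreb2, and Dgcr6 fell in B117H, at -0.54 (adjusted p = 0.00895).

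The rest of the machinery was described by lists of genes that are not among the 7. Of 15 measured recombination and end joining partners, 1 rose and 1 fell in B117H against B117P (13.3%, against 9.41% of all genes), with a median log2 difference of 0.11. Values in parentheses are log2 differences with their SE and limma's adjusted p. Xrcc5, a Ku subunit that binds broken DNA ends, rose (1.27 ± 0.15, adjusted p = 0.000136), and Poll, a gap-filling polymerase, fell (-0.82 ± 0.12, adjusted p = 0.000925). In B140H against B140P, 3 fell and none rose by limma (20.0%, against 6.56%; 4 of 15 at an unadjusted p under 0.05), with a median of 0.01. Xrcc5 fell (-2.10 ± 0.15, adjusted p = 3.76e-06), as did Atm, the kinase that answers double-strand breaks (-0.47 ± 0.09, adjusted p = 0.0061), and Mre11a, a nuclease of the break-sensing complex (-0.45 ± 0.09, adjusted p = 0.0124). Xrcc5, like Dntt and Vpreb1, was thus higher in B117H and lower in B140H than in the parent. The call of Atm ended under 4 of 24 alternatives and that of Mre11a under 8, 3 of them without a single array, and the mean of the Mre11a probe sets gave -0.25.

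Between the lineages, 3 of the 15 partners were higher and 4 lower in B140P than in B117P (46.7%, against 23.8% of all genes), and none was higher and 4 were lower in B140H than in B117H (26.7%, against 27%; 6 at an unadjusted p under 0.05). Xrcc5 was higher in B140P than in B117P (2.94 ± 0.15, adjusted p = 9.67e-09), as was Atm (0.91 ± 0.09, adjusted p = 4.69e-06), whereas Poll was lower (-0.87 ± 0.12, adjusted p = 0.000182). Xrcc5 had a mean log2 level of 5.73 in B117P and lay below the array median on 7 of the 12 arrays, which limits the exactness of its sizes. In B140H, Trp53bp1, an adaptor at breaks, and Nbn, of the same break-sensing complex as Mre11a, were lower than in B117H by limma (-0.83 ± 0.13, adjusted p = 0.000502, and -0.80 ± 0.11, adjusted p = 0.000109), and the mean of the Trp53bp1 probe sets gave -0.45. Xrcc4, the partner of the end joining ligase, was lower in B140P than in B117P and in B140H than in B117H (-0.82 ± 0.13, adjusted p = 0.000544, and -0.91 ± 0.13, adjusted p = 0.000201), calls that ended without probe sets named _s_at or _x_at. Hmgb2, a DNA-bending protein that aids the recombinase, was lower in B140H than in B117H (-0.43 ± 0.12, adjusted p = 0.0234), though it lost that call under 8 of 24 alternatives.

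Of 15 measured pre-B cell receptor partners and signalling genes, 3 rose and 2 fell in B117H against B117P (33.3%, against 9.41% of all genes), with a median of 0.07. Blnk rose as given above, and Ighm, the mu heavy chain gene, rose (0.73 ± 0.13, adjusted p = 0.00361), although the mean of its probe sets gave 0.11 (adjusted p = 0.608). Syk, the kinase that the receptor recruits, fell (-0.60 ± 0.09, adjusted p = 0.001; -0.40 by the mean of its probe sets), and so did the signalling chain Cd79b (-0.75 ± 0.20, adjusted p = 0.0385), whose call was lost under 10 of 24 alternatives. In B140H against B140P, 1 fell and none rose by limma (6.67%, against 6.56%; 5 at an unadjusted p under 0.05), and 3 were called with the array letter as a block. The gene that fell was Pik3ap1, an adaptor for phosphoinositide kinase (-0.49 ± 0.11, adjusted p = 0.0255), a call that ended under 9 of 24 alternatives.

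Between the lineages, 7 of the 15 were higher and 1 lower in B140P than in B117P (53.3%, against 23.8%), and 5 were higher and 3 lower in B140H than in B117H (53.3%, against 27%). Cd79a and Cd79b, which carry the signal of the receptor, were higher in B140P than in B117P (limma, 2.04 ± 0.23, adjusted p = 2.66e-05, and 4.11 ± 0.20, adjusted p = 7.49e-09). They were also higher in B140H than in B117H (2.98 ± 0.23, adjusted p = 6.81e-07, and 5.45 ± 0.20, adjusted p = 4.91e-10). Plcg2, the phospholipase downstream of Blnk, was higher in both comparisons (1.16 ± 0.09, adjusted p = 6.67e-07, and 1.29 ± 0.09, adjusted p = 2.14e-07), while Blnk was lower in B140H than in B117H (-1.69 ± 0.22, adjusted p = 8.79e-05). In the B117 lines, where Vpreb1 was measured at the intensities above, Cd79a and Cd79b had mean log2 levels of 5.99 to 6.74 and lay below the median of the array on all 6 B117 arrays. Blnk had a mean log2 level of 6.53 in B140H, which limits the exactness of its difference.

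Of 34 measured transcription factors of early lymphoid cells, 4 rose and 4 fell in B117H against B117P (23.5%, against 9.41%), and 2 rose and 3 fell in B140H against B140P (14.7%, against 6.56%). Irf8, a factor of myeloid and B cell development, fell in B117H (-1.02 ± 0.12, adjusted p = 0.000134) and rose in B140H (0.76 ± 0.12, adjusted p = 0.00201), the second call ending under 1 of 24 alternatives. Gfi1, a repressor active in lymphoid and granulocytic progenitors, also fell in B117H (-1.54 ± 0.20, adjusted p = 0.000316) and rose in B140H (0.84 ± 0.20, adjusted p = 0.0288), and here the second call ended under 9 of 24 alternatives. Id1 and Id2, inhibitors of the E proteins that act on Rag and surrogate light chain genes, fell in B117H (-1.22 ± 0.18, adjusted p = 0.00084, and -1.14 ± 0.32, adjusted p = 0.0494), the call of Id2 ending under 12 of 24 alternatives. Pou2af1, the B cell coactivator of octamer-binding factors, fell in B140H (-2.69 ± 0.19, adjusted p = 4.73e-06), and so did Sox4, a factor of progenitor B cells (-0.96 ± 0.15, adjusted p = 0.00201), whose call ended under 2 of 24 alternatives and whose probe sets had a mean of -0.43. Pou2af1 had mean log2 levels of 4.24 in B140H and 4.36 in both B117 lines, at the low end of the arrays, so the size of its fall is not exact.

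Between the lineages, 6 of the 34 factors were higher and 8 lower in B140P than in B117P (41.2%, against 23.8%), and 5 were higher and 12 lower in B140H than in B117H (50%, against 27%). Ebf1, the factor that starts the B cell programme together with E proteins, was higher in B140P (3.87 ± 0.13, adjusted p = 2.50e-10) and in B140H (4.28 ± 0.13, adjusted p = 9.94e-11). Pou2af1 was higher in B140P than in B117P (2.57 ± 0.19, adjusted p = 5.29e-07), where its B117P level lay at the low end of the arrays. Erg, a stem and progenitor cell factor, was lower in B140P (-5.22 ± 0.16, adjusted p = 1.20e-10) and in B140H (-5.92 ± 0.16, adjusted p = 3.87e-11). Ebf1 in the B117 lines and Erg in the B140 lines had mean log2 levels of 5.4 to 5.9, below the array medians, so the sizes of their differences are not exact. Bcl11a and Bach2, which act in lymphoid progenitors, were lower in B140H than in B117H (-2.77 ± 0.26, adjusted p = 4.19e-06, and -2.50 ± 0.14, adjusted p = 3.04e-08). By the mean of each gene's probe sets these calls held at smaller sizes, -3.07 and -3.45 for Erg, -1.84 for Bcl11a and -1.61 for Bach2.

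Of 16 measured early lymphoid surface and cytokine receptor genes, 2 rose and 1 fell in B117H against B117P (18.8%, against 9.41%). Il7r, the receptor through which interleukin-7 drives early lymphocytes, rose (1.77 ± 0.30, adjusted p = 0.00239), as did Jak1, one of its kinases (0.50 ± 0.09, adjusted p = 0.0026). The Il7r call ended without all B arrays (adjusted p = 0.0791) and that of Jak1 under 3 of 24 alternatives. Cd24a, a surface protein of immature B cells among others, fell (-2.04 ± 0.23, adjusted p = 0.000117). In B140H against B140P, 2 rose and none fell by limma (12.5%, against 6.56%; 5 at an unadjusted p under 0.05), and 4 were called with the array letter as a block. They were Cd24a (0.89 ± 0.23, adjusted p = 0.0469), a call that ended under 17 of 24 alternatives, and the chemokine receptor Cxcr4 (0.63 ± 0.12, adjusted p = 0.00671), whose call ended under 2. Between the parents, Il7r and Flt3 were higher in B140P than in B117P (2.83 ± 0.30, adjusted p = 1.41e-05, and 2.34 ± 0.15, adjusted p = 1.46e-07). Kit and Cd34, which mark stem and progenitor cells, were lower (-4.96 ± 0.23, adjusted p = 5.81e-09, and -7.35 ± 0.21, adjusted p = 5.12e-11). In B140H, Flt3 and Cd24a were higher than in B117H (2.11 ± 0.15, adjusted p = 3.61e-07, and 2.78 ± 0.23, adjusted p = 1.24e-06), and Kit and Cd34 were lower (-4.98 ± 0.23, adjusted p = 5.69e-09, and -7.60 ± 0.21, adjusted p = 3.64e-11). Kit and Cd34 had mean log2 levels of 5.1 to 5.5 in the B140 lines, below the array medians, so the sizes of their differences are not exact. Across 24 alternatives Kit stayed called, but its difference shrank to -3.48 between the parents and -3.71 between the resistant lines at the smallest. Over this list 3 genes were higher and 4 lower in B140P than in B117P (43.8%, against 23.8%), and 5 higher and 4 lower in B140H than in B117H (56.3%, against 27%).

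**Figure D4:**
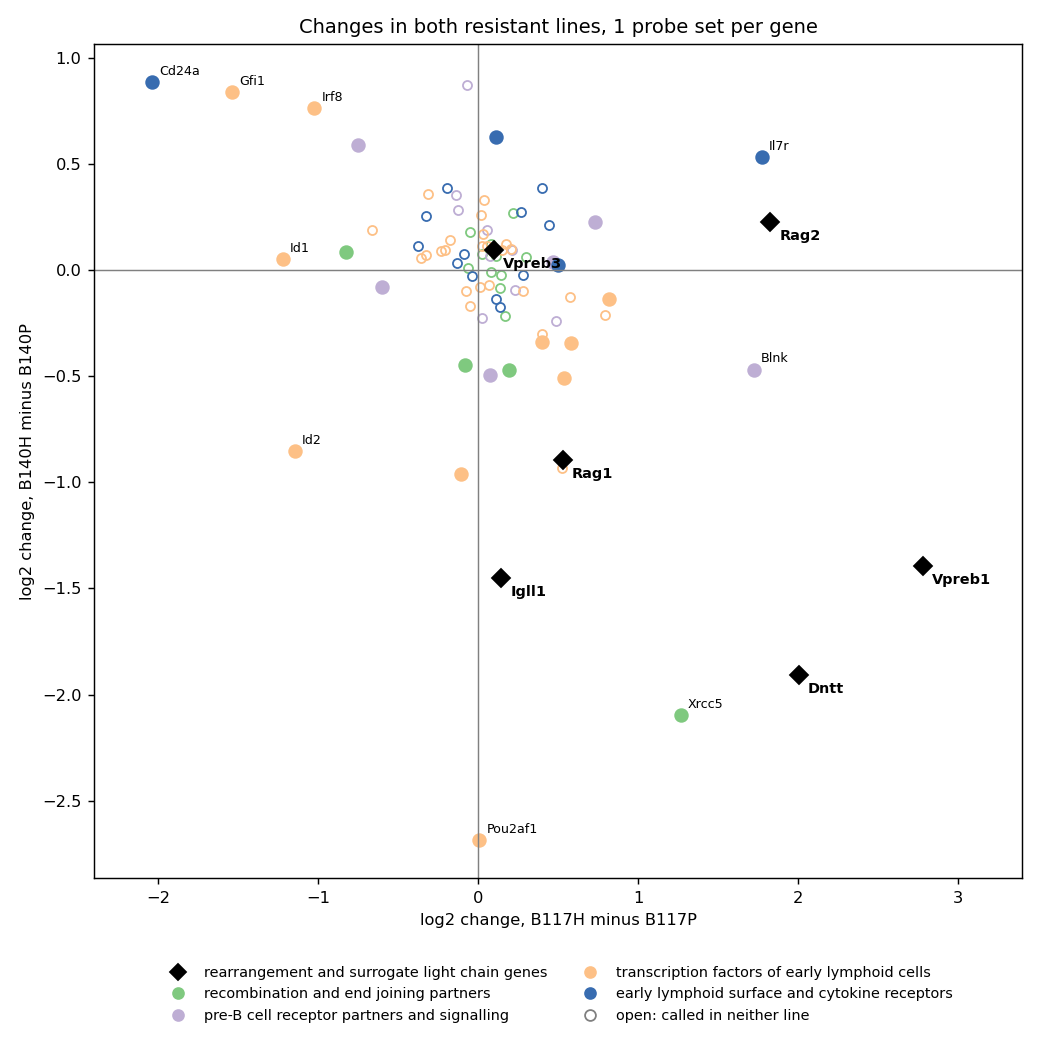
Log2 change in B140H against B140P (vertical) and in B117H against B117P (horizontal) for 1 probe set per gene, with diamonds for the rearrangement and surrogate light chain genes and circles for the other lists. Circles are filled where the gene was called in either line, and diamonds carry no call. Vpreb1, Dntt and Xrcc5 lie at the lower right (higher in B117H, lower in B140H), and Cd24a, Gfi1 and Irf8 at the upper left.

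Markers of other cell types are set beside these differences. Of the 17 myeloid markers, 9 fell and none rose in B117H against B117P (52.9%, against 9.41% of all genes), with a median log2 difference of -0.59. In B140H against B140P, 2 fell and none rose (11.8%, against 6.56%; 6 at an unadjusted p under 0.05), with a median of 0.0022, although the summed level was lower in B140H as well. None of the 14 T and NK cell markers was called by limma in either comparison, and 1 and 3 had an unadjusted p under 0.05. The summed B cell markers overlapped between B117H and B117P and were higher in B140H than in B140P, where Vpreb1 and Dntt were lower. Of the 13, 1 rose and 1 fell by limma in B117H against B117P (15.4%, against 9.41%). In B140H against B140P, 2 rose and none fell (15.4%, against 6.56%; 4 at an unadjusted p under 0.05), with a median of 0.11. The 2 that rose in B140H were Cd22 and Bank1, which modulate B cell receptor signals (1.64 ± 0.20, adjusted p = 0.000312, and 1.23 ± 0.16, adjusted p = 0.000451). Bank1 lay below the array median on 9 of the 12 arrays, so the size of its rise is not exact. Of the myeloid markers, Ms4a3 and Elane fell in B117H (-3.03 ± 0.15, adjusted p = 1.66e-07, and -1.63 ± 0.25, adjusted p = 0.0013), and Mpo, the myeloperoxidase gene, and the receptor gene Cd33 fell in B140H (-2.41 ± 0.29, adjusted p = 0.000284, and -0.97 ± 0.23, adjusted p = 0.0281), calls that ended under 1 and 7 of 24 alternatives. The 11 plasmacytoid dendritic cell markers, of a cell type that can carry Rag1 and Dntt transcripts, summed to 8020.2 to 9654 in B117H and 6623 to 7332 in B117P, and to 7069.8 to 7659 in B140H and 7554 to 8586 in B140P. By limma, Cox6a2 and Tcf4 rose and Bst2 and Irf7 fell in B117H against B117P (36.4%, against 9.41%), with a median of 0.03. These calls ended under 4, 13, 10 and 7 of 24 alternatives. In B140H against B140P none of the 11 was called (against 6.56%; 2 at an unadjusted p under 0.05). Between the lineages, 3 of the 11 were higher and 2 lower in B140P than in B117P (45.5%, against 23.8% of all genes). The counts were the same for B140H against B117H (45.5%, against 27%). Siglech was higher in both comparisons (2.45 and 1.87), as was Pacsin1 (1.03 and 1.30), whereas Cox6a2 was lower (-2.36 and -3.37). The part of the 11 markers in the differences of the 7 genes was not tested.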

How the data were processed

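Total RNA of 4 mouse AML lines was measured on 12 one-colour Affymetrix-type arrays, 3 per line. The deposited values are intensity values per probe set, made by the authors with RMA per the submitters' processing notes, whose version is not given in the sources used here. They run from 7.65 to 36675, a range that fits intensities not yet on a log scale. RMA compresses low values, and arrays carry no counts, so the number of arrays limits the precision.

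Of 45101 probe sets, 64 array controls were left out. The 45037 others were put on a log2(value + 1) scale and fitted with limma 3.58.1 in R 4.3.3 (lmFit, contrasts.fit, eBayes; 1 coefficient per line over all 12 arrays), 2-sided, with Benjamini-Hochberg adjustment over all probe sets and a call at an adjusted p under 0.05. By GEO's platform annotation, 34945 probe sets had 1 gene symbol, 932 several and 9160 none. Each gene was taken from the brightest probe set that carries its symbol alone, which gave 18193 genes, of which 18145 were in the gene table of RefSeq (GRCm38.p6) used for chromosomes and neighbours. The fit was tested on simulated data.

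The genes named are all 7 members, from each list the called genes with the largest changes (up to 4 per contrast), the 3 genes most alike to each member whose line means span at least 1 log2 unit, and the nearest measured genes on each side. Members and lists were chosen with earlier results of these data known. Array letters came from the sample titles. Deviations of same-lettered arrays from their line means correlated at 0.587, 0.360 and 0.560 (A, B, C) between B140H and B140P. They correlated at 0.499, 0.131 and 0.414 between B140P and B117P, and at 0.455, 0.349 and 0.532 between B140H and B117H. Letters were taken as pairs where all 3 correlations exceeded 0.1, as in these comparisons, though the labels do not say what the letters stand for. Between B117H and B117P the correlations were 0.555, 0.028 and 0.392, and the letters were not taken as pairs. B117H with B140P gave 0.567, 0.367 and 0.493, and B117P with B140H gave 0.483, -0.043 and 0.355. The main fit, which gave the SEs and adjusted p-values printed without a named alternative, held no block. With the letter as a block, 28.2% of all genes were called in B140P against B117P and 32.1% in B140H against B117H. Alternatives tried were other pseudocounts, filters, normalizations, variance priors, probe-set rules, a replicate block, fits of 6 arrays and the leaving out of arrays. Upstream sequences were read and drawn with Python 3.11.15 and matplotlib 3.10.9.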

Additional observations from a re-analysis of the deposited data

Results flagged for a closer look

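The changes in the 2 resistant lines went opposite ways on all arrays for Rag1 and for every Vpreb1 and Dntt probe set. Vpreb1 and Dntt were chosen for this, and the share of all probe sets that do so was not computed. The Rag1 arrays of the B117 lines, among the dimmest probe sets, were apart only by a lowest B117H value of 22.5 against a highest B117P value of 20.5. The change in B140H minus the change in B117H was -1.42 for Rag1, -3.60 for Dntt by 1420166_at, -3.91 by 1449757_x_at and -4.64 by 1450545_a_at. It was -4.04 for the probe set shared by Vpreb1 and Vpreb2 and -4.18 for Vpreb1. No test is given for these differences, since Vpreb1 and Dntt were chosen for them.

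Among the other listed genes, 4 had changes of opposite signs that were called in both lineages. The change in B140H minus the change in B117H was -3.36 for Xrcc5, 1.78 for Irf8, 2.38 for Gfi1 and 2.92 for Cd24a. Picking genes by opposite calls all but fixes that this difference is large, so it is given as description. The calls of Cd24a and Gfi1 in B140H, on which their place here depends, ended under 17 and 9 of 24 alternatives, and that of Irf8 under 1. Xrcc5 was higher in B117H and lower in B140H than in the parent, and the other 3 were lower in B117H and higher in B140H.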

How the results depend on the processing

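Over 24 alternatives, no Vpreb1 or Dntt change turned its direction, nor did a tested lineage difference of a member other than Vpreb3, which was called under none of them and ranged from -0.03 to 0.28 in B140H minus B117H. Vpreb1 ranged from 2.44 to 3.004 in B117H minus B117P and from -1.70 to -1.18 in B140H minus B140P, and Dntt from 1.52 to 2.43 and from -2.21 to -1.72. The value of -2.21 came without probe sets named _s_at or _x_at, where another probe set stands for Dntt. Under the same rule Igll1 had -0.01 in B140H minus B140P, 0.20 in B140P minus B117P (adjusted p = 0.653) and 0.09 in B140H minus B117H (adjusted p = 0.803). Vpreb3 in B140H minus B140P, 0.09 with all arrays, ranged from -0.11 to 0.22. Rag1 and Rag2 stayed called in both lineage comparisons under all 24 alternatives, and 2 to 3 of the 4 tested members were called.

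With the replicate block (paired array letters), 3 of the 4 tested members were called in each lineage comparison, and the block ended no call of a member. It raised the genes called in B140H minus B140P to 1827, against 1194 without it. Between B117H and B117P, where the letters were not taken as pairs, it gave 2381 against 1712, with 14 against 8 transcription factors and 6 against 3 receptor genes.

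The number of genes called depended on the arrays. For B140H minus B140P it was 682 in a fit of 6 arrays, 746 to 763 without 1 of the B140P arrays, and 354 to 489 without all arrays of a letter. For B117H minus B117P it was 588 to 1020 without all arrays of a letter, against 1712. Without all C arrays it was 2698 against 4333 for B140P minus B117P, and 3130 against 4911 for B140H minus B117H. The tested difference between the lineages' changes had 575 to 904 calls without a letter, against 1896. Fewer arrays enter these fits. Called transcription factors in B117H minus B117P ranged from 3 to 14 (8 in the fit of all arrays). In B140H minus B140P, pre-B cell receptor partners ranged from 0 to 3 (1) and receptors from 0 to 4 (2). Detection near background cannot be judged, so the Rag1 difference within the B117 lines is limited by signal.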
